A study of Mus musculus with 39 samples.

Results

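The genes described here are 38 mouse genes of drug and steroid metabolism, chosen by name out of the 55416 gene identifiers of the count table. They comprise 11 Cyp2c genes, 5 Cyp2d genes, 4 Cyp2a genes, 3 Cyp2b genes, 4 genes of the Cyp2f, Cyp2j and Cyp2u subfamilies and 7 Cyp3a genes. The reductase gene Por and the receptor genes Nr1i2, Nr1i3 and Ahr complete the set. All 38 matched 1 row of the table each, Cyp2c44 under the newer symbol Cyp2c23. RNA was measured in whole liver of male mice on the C57BL/6NTac background that carried the CD163tm1(KOMP)Vlcg knockout allele on both copies, or were wildtype littermates, all bred from heterozygous parents. Cd163 encodes a scavenger receptor of macrophages. From 6 weeks of age, mice ate maintenance chow, or a Western diet with fructose added to their water, for 8 weeks. The libraries number 5 for wildtype chow, 4 for knockout chow, 15 for wildtype Western and 15 for knockout Western, and are named by the replicate letter of their label. No animal identifiers were used here, so p-values measure the spread between libraries of a group.

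Cytochromes P450 of the Cyp2 and Cyp3 families are haem enzymes of the hepatocyte endoplasmic reticulum that oxidise drugs, steroids and fatty acids. They take their electrons from the P450 oxidoreductase encoded by Por, and many are induced through the receptors PXR (Nr1i2), CAR (Nr1i3) and the aryl hydrocarbon receptor (Ahr), which respond to foreign compounds and, for PXR and CAR, to bile acids. In the mouse these families have expanded by tandem duplication, and several copies are expressed mainly in the liver of one sex.

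Total counts per library ran from 8578865 to 30438808 with a median of 14573193, and the 38 genes held 0.789% to 1.44% of them. Cd163 lay between 2.59 and 15.8 CPM (counts relative to the scaled total of each library) in wildtype libraries and between 0 and 0.746 CPM in knockout libraries. All 9 hepatocyte markers had counts in every library and summed to between 61683 and 101017 CPM. Fewer hepatocytes and less RNA per hepatocyte cannot be told apart in such samples. On a scale set by 542 other diet genes, 4 libraries lay with the diet opposite to their label. The genes were picked without these 4, and so were the ends of the scale, 0 for the mean of chow and 1 for that of Western libraries. The gap between the other libraries is therefore partly built in. The 4 were wildtype chow A at 0.920, knockout chow D at 0.980, wildtype Western A at 0.215 and knockout Western M at 0.164. The other 7 chow libraries lay at -0.0588 to 0.103 and the other 28 Western libraries at 0.821 to 1.25. The labels were kept, and counts of genes called are given with and without these 4 libraries. Because these 4 were set apart by diet genes, fits, p-values and counts of separated libraries without them lean towards larger diet differences. Such values are no separate support for a diet change. Counts of wildtype Western L and M differed least among pairs, at a chi-square per gene of 3.97, while the next pair was at 10.4. Mean log2 CPM of 21 acute phase genes was 8.97 to 10.4 in wildtype Western F, G, L, M and N and at most 7.98 in the other 10 libraries of that group, and it was 9.10 and 9.25 in wildtype chow A and E, with the remaining chow libraries no higher than 7.20. In knockout Western libraries it was 9.22 in E and at most 8.17 in the others. Of the markers of other cell types, 4 of 5 erythroid genes tested rose with the Western diet (summed 78.8 to 117 CPM on chow and 96.1 to 251 CPM on Western diet), 1 of 9 macrophage, 1 of 8 stellate cell and 1 of 3 neutrophil genes rose, 1 of 7 endothelial genes fell, and none of 6 cholangiocyte or 7 lymphocyte genes passed. Of all genes tested, 7.84% rose and 6.77% fell between the diets. The single testable marker of fat cells and that of kidney or intestine rose, and that of pancreas did not pass. The part of any of these in the results was not tested.

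Levels of different genes are compared here only per length, as mean CPM per kb of exon over all libraries. This length joins all annotated exons and can exceed that of the longest coding transcript. It is 5.093 kb against 2344 bases for Cyp3a11, 3.061 kb against 1783 bases for Cyp2c29 and 2.025 kb against 1866 bases for Cyp2f2. The order of these 3 genes therefore depends on the length used. Cyp2d9, a steroid 16-alpha-hydroxylase known as male-biased, stood highest at 769, followed by Cyp2d26 at 640, Cyp2d10 at 475, Cyp2f2 at 418.5 and Cyp2c29 at 271. Cyp3a11, the main mouse counterpart of human CYP3A4, stood at 210. The reductase gene Por stood at 44.1, and the receptor genes lay lower at 31.5 for Nr1i2, 22.3 for Nr1i3 and 5.99 for Ahr. At the other end, 5 members had too few counts to be tested. Their counts summed over all 39 libraries were 72 for Cyp3a44, 59 for Cyp2b10, 56 for Cyp2b13, 35 for Cyp3a16 and 1 for Cyp3a41a. Cyp3a44, Cyp3a16, Cyp3a41a and Cyp2b13 are known as female-biased genes, and Cyp2b10 is the classical target of CAR. Of the 75-base windows of the Cyp3a41a transcript, 95.3% also lie in other transcripts, 91.1% in those of Cyp3a41b. Reads that fit several copies may go uncounted, so the count of Cyp3a41a does not show that it is absent. A library with a count of 0 still allows up to 3 counts, which is 0.0851 to 0.355 CPM depending on its depth, by counting error alone.

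**Figure D1:**
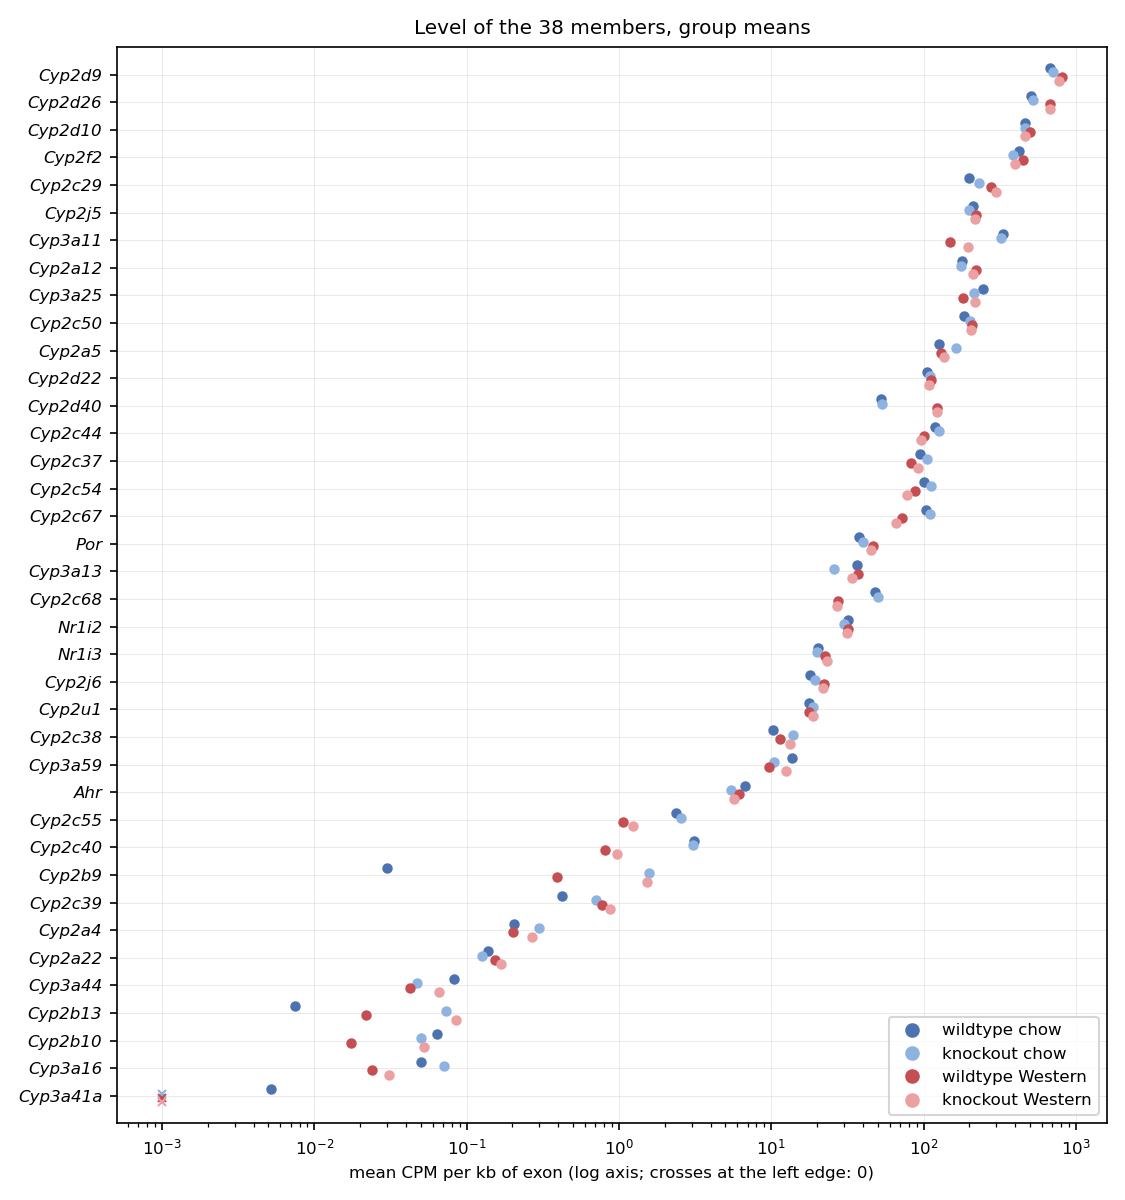
Group means of the 38 members in CPM per kb of exon (horizontal log axis), 1 row per gene in order of level, 1 colour per group. The 4 group means of most abundant members lie close together, and Cyp2d40 is higher and Cyp2c68, Cyp2c40 and Cyp2c55 are lower in both Western groups. Cyp3a41a is at 0 in 3 groups, but shares most of its 75-base windows with Cyp3a41b.

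Between the diets a minority of these genes changed, with falls of Cyp3a11 and some Cyp2c genes and rises of Cyp2a12, Cyp2j6 and some Cyp2d genes. Of 33 members tested, 9 (27.3%) passed an adjusted p under 0.05 in edgeR's quasi-likelihood test of Western against chow averaged over genotypes, beside 14.6% of all 15296 genes tested. Cyp2d40, Cyp2d26, Cyp2a12 and Cyp2j6 rose, where 7.84% of all genes rose. Cyp2c40, Cyp2c55, Cyp2c68, Cyp2c67 and Cyp3a11 fell, where 6.77% of all genes fell. The median log2 fold change over the members tested was 0.05, beside -0.0019 over all genes, and the median of its absolute value was 0.21 beside 0.16. Without the 4 libraries placed with the other diet, 11 of 33 members passed beside 29.9% of all genes, a smaller excess than with all libraries. The additions were Cyp2b9 and Cyp2c44.

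**Figure D2:**
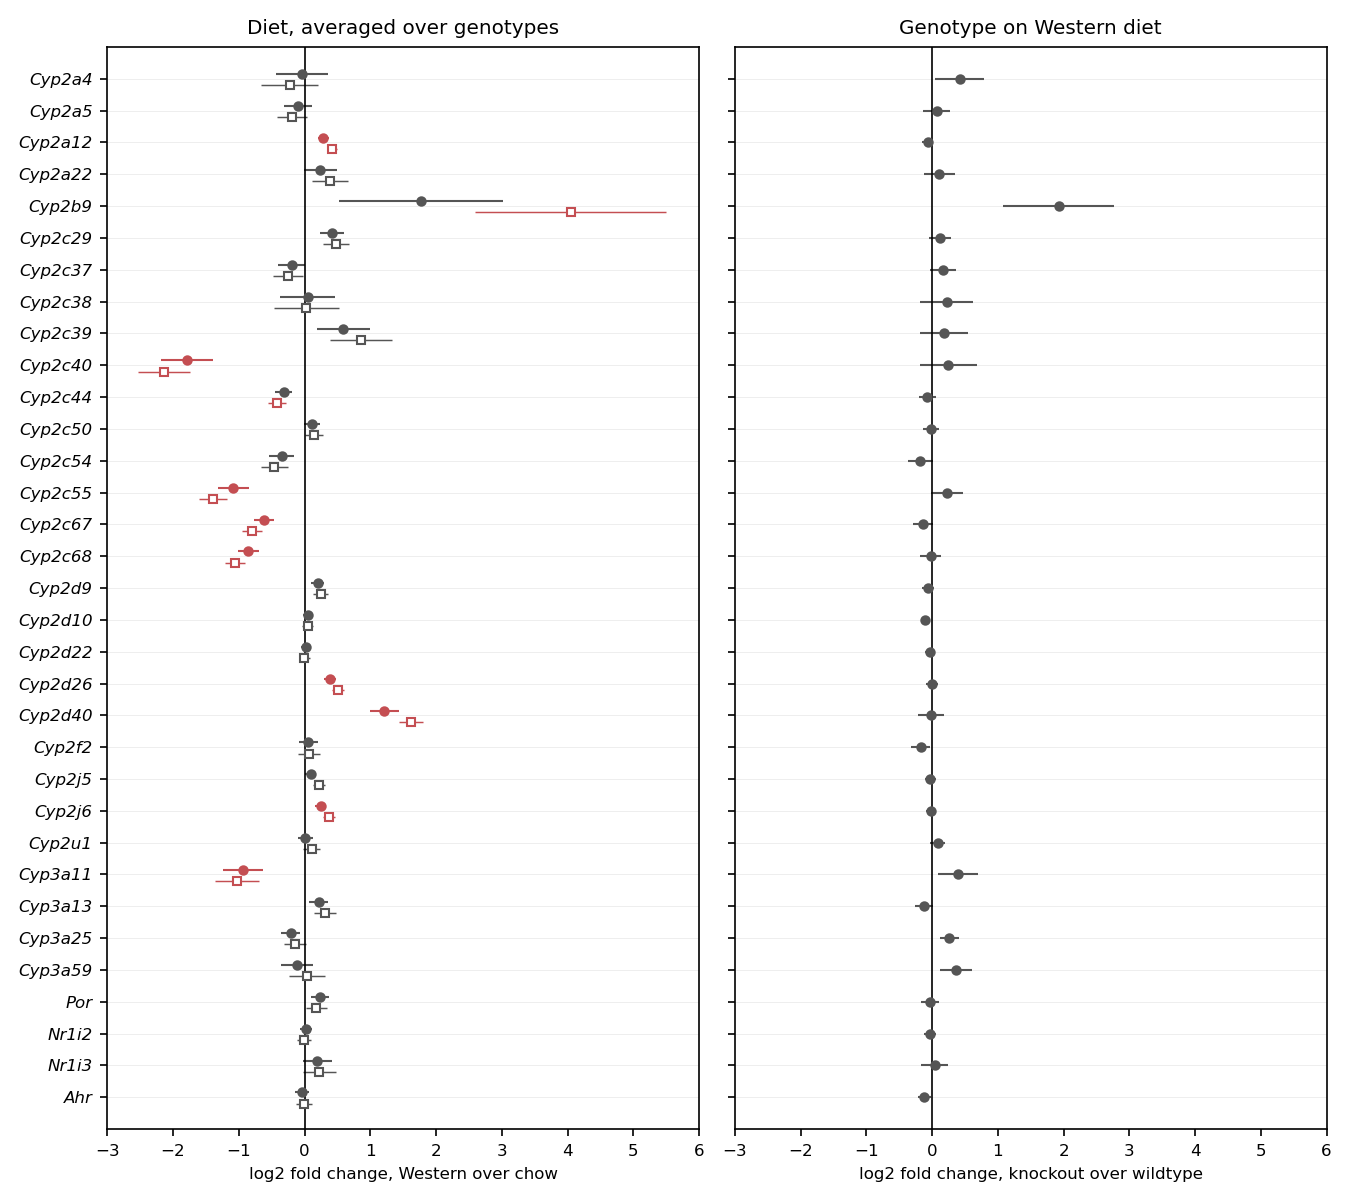
Log2 fold changes with standard errors of the 33 members tested. Left, Western over chow averaged over genotypes with all libraries (filled circles) and without the 4 libraries placed with the other diet (open squares), red where adjusted p is under 0.05; right, knockout over wildtype on Western diet, where no member passed. With all libraries, Cyp2d40 lies farthest right (1.21) and Cyp2c40 farthest left (-1.79) among the called members; Cyp2b9 is called without the 4 libraries (4.05) and not with them.

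The Cyp2c genes encode hydroxylases and epoxygenases of arachidonic acid and other lipids as well as drugs. Of 11, 4 fell, none rose and 7 did not pass, with a subfamily median of -0.32. Cyp2c40, a female-biased member that acts on arachidonic acid, was at 2.97, 4.56, 13.0, 9.64 and 1.54 CPM in wildtype chow A to E and at 5.41, 14.4, 4.58 and 0.648 CPM in knockout chow A to D. On Western diet the lowest, median and highest values were 0.371, 1.66 and 2.80 CPM in wildtype and 0.151, 1.23 and 6.76 CPM in knockout libraries. The chow libraries spread widely. Wildtype chow E lay within the wildtype Western range, and 3 of 4 knockout chow libraries lay within the knockout Western range, whose highest libraries were K and O. The fitted level was 3.45-fold lower on Western diet (log2 -1.79, SE 0.39, adjusted p 0.0033). Cyp2c40 shares 57.1% of its 75-base windows with other transcripts, 32.7% with its copy Cyp2c69 alone, so reads could be split between them. Cyp2c69, which is no member, moved likewise by -1.82 (SE 0.45, adjusted p 0.0077).

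Cyp2c68 was at 51.0, 89.8, 97.2, 124 and 51.6 CPM in wildtype chow A to E and at 94.1, 104, 102 and 44.5 CPM in knockout chow A to D. Wildtype Western libraries ran from 31.4 through a median of 47.0 to 66.1 CPM, and knockout Western libraries from 22.1 through 44.3 to 69.3 CPM. Apart from the 4 placed libraries, all 14 knockout Western libraries lay below all 3 knockout chow libraries, and 10 of 14 wildtype Western libraries lay below all 4 wildtype chow libraries. The low wildtype chow libraries A and E are the 2 with high acute phase genes, whose part in this was not tested. The fitted level fell 1.81-fold (log2 -0.85, SE 0.16, adjusted p 0.0011). The neighbouring copy Cyp2c67 fell by 0.62 on the log2 scale (SE 0.15, adjusted p 0.0070), from chow values of 110 to 286 CPM to medians of 116 CPM in wildtype and 124 CPM in knockout Western libraries. Apart from the placed libraries, all 14 knockout Western libraries and 6 of 14 wildtype Western libraries lay below all chow libraries of their genotype for Cyp2c67. Its call was lost without knockout chow B, its highest library (adjusted p 0.056). Cyp2c68 and Cyp2c67 share 28.5% and 36.0% of their windows with other transcripts, most with Cyp2c40.

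Cyp2c55 encodes a hydroxylase of arachidonic acid and is known to be induced through PXR and CAR. It shares no window with another transcript. Its values were 1.16, 7.95, 6.27, 5.49 and 2.88 CPM in wildtype chow A to E, and 6.23, 2.71, 8.73 and 2.698 CPM in knockout chow A to D. Western libraries ran from 0.756 through 1.89 to 4.73 CPM in wildtype and from 1.35 through 2.44 to 4.17 CPM in knockout. The highest wildtype Western value was that of library A, and the lowest chow value that of wildtype chow A, both among the 4 placed libraries. The fitted level fell 2.12-fold (log2 -1.08, SE 0.23, adjusted p 0.0027), and was not called with the replicate letter as a block (adjusted p 0.13). The 7 Cyp2c members not called ran from -0.35 for Cyp2c54 to 0.59 for Cyp2c39. Cyp2c29, the most abundant Cyp2c gene per length, was at 0.42 (SE 0.18, adjusted p 0.10), and Cyp2c44 at -0.32 (SE 0.13, adjusted p 0.077), which passed at -0.42 without the 4 placed libraries (adjusted p 0.016).

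Cyp3a11, induced through PXR, was the one Cyp3a member called of 4 tested. It was at 687, 2133, 1906, 2013 and 1753 CPM in wildtype chow A to E, and at 1740, 249, 3370 and 1261 CPM in knockout chow A to D. Western values ran from 113 through 608 to 2117 CPM in wildtype and from 324 through 977 to 1696 CPM in knockout libraries. Apart from the placed libraries, 13 of 14 wildtype Western libraries lay below every wildtype chow library, while no knockout Western library lay below knockout chow B. The fitted fall was 1.91-fold (log2 -0.93, SE 0.31, adjusted p 0.036). It was not called without a low-count filter, with the replicate letter as a block (highest adjusted p over these alternatives 0.14), or when any of 5 chow libraries was left out (knockout chow A or C, wildtype chow B, C or D). Of the others, Cyp3a13 was at 0.21 (SE 0.15), Cyp3a25 at -0.21 (SE 0.15) and Cyp3a59 at -0.11 (SE 0.25), and none passed.

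The windows upstream of 4 of the 5 genes that fell are shown because these 4 hold the same 9 bases, CAAAGTCCA, known as a motif of the nuclear receptor HNF4. Sequences are from RefSeq (GRCm38.p6), 250 bases up to the transcription start, read 5′ to 3′ on the strand of the gene, which is the minus strand in each case. Capitals mark CAAAGTCCA in the 4 genes that fell. In Cyp2d40, which had the largest rise among members called with all libraries, capitals mark a reverse-strand match to TATAAA.
Cyp2c40, chr19:39812815-39813064: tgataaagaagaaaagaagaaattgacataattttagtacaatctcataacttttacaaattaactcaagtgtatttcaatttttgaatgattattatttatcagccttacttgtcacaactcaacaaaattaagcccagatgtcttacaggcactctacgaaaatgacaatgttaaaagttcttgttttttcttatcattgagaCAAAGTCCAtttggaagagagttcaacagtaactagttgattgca
Cyp2c67, chr19:39649043-39649292: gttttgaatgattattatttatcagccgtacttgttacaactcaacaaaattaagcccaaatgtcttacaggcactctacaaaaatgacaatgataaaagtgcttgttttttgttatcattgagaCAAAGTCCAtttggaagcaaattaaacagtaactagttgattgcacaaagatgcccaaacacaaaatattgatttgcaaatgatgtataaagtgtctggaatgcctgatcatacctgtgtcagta
Cyp2c68, chr19:39741102-39741351: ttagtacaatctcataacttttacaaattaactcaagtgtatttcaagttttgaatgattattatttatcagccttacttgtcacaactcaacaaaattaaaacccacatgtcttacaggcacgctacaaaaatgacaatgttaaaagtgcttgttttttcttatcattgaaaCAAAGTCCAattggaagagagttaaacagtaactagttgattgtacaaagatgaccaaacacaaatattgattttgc
Cyp3a11, chr5:145879855-145880104: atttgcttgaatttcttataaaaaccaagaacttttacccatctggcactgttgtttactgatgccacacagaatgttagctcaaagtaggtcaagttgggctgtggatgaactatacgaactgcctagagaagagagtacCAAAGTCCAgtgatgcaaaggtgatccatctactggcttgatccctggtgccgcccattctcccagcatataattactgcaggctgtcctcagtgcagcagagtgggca
Cyp2d40, chr15:82764123-82764372: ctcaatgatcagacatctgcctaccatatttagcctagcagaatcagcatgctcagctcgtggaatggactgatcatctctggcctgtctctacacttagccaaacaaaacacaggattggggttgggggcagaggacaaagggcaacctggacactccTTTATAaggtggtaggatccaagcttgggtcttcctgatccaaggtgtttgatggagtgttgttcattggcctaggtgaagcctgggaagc

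The match starts 45 bases before the start of Cyp2c40, 125 before that of Cyp2c67, 77 before that of Cyp2c68 and 109 before that of Cyp3a11, always on the strand of the gene. The 3 Cyp2c windows are copies of one another, 90.6% to 93.6% identical over 219 to 269 aligned bases, so they are not separate instances. Windows of 300 bases (250 before the start and 50 after it) were searched on both strands for 33 of the 38 members. CAAAGTCCA was in 0.475% of all 32851 windows and in 6 members: the 4 above, 0 of 4 that rose, and Cyp3a16 and Cyp3a41a among the other 24. Cyp2c55, which also fell, does not hold these letters in its window.

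The search covered 11 motifs in all, chosen with the diet results known. TATAAA was in 19 members and 13.6% of all windows, the nuclear receptor half-site AGGTCA in 13 members and 16.3% of all, and TTGCNNAA (C/EBP) in 9 members and 10.8% of all. TTCNNNGAA (STAT5) was in 0 members and 8.30% of all, GCGTG (Ah receptor core) in 3 and 32.4%, CACGTG (E-box) in 2 and 7.15%, and TCACNCCAC (sterol regulatory element) in 3 and 1.24%. Direct repeats of the half-site with 1 base (0.0396% of all windows) or 4 bases (0.0457%) between the copies, which overlap the half-site search, and the HNF1 motif (0.140%) were in 0 members. A match is a run of letters and not a measured binding site.

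Cyp2d genes encode hydroxylases of steroids and basic drugs. Of 5 tested, 2 rose, none fell and all 5 fitted values were above 0. Cyp2d40 was at 167, 68.5, 71.0, 71.6 and 98.8 CPM in wildtype chow A to E and at 58.8, 84.1, 79.9 and 160 CPM in knockout chow A to D. On Western diet it ran from 80.1 through 217 to 321 CPM in wildtype and from 75.1 through 218 to 321 CPM in knockout libraries. The 2 highest chow libraries were wildtype chow A and knockout chow D, and the lowest wildtype Western library was A, at 80.1 CPM, all among the 4 placed libraries. Knockout Western M, the remaining placed library, was at 86.3 CPM, and knockout Western F, which is not one of them, at 75.1 CPM. Apart from the placed libraries, 14 of 14 wildtype and 13 of 14 knockout Western libraries lay above all chow libraries of their genotype. The fitted rise was 2.31-fold (log2 1.21, SE 0.22, adjusted p 0.0011), and 1.62 on the log2 scale without the placed libraries (adjusted p 8.6e-08). The latter value and these separations lean towards a diet difference by the choice of libraries left out.

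Cyp2d26, the second most abundant member per length, was at 856, 919, 835, 1075 and 879 CPM in wildtype chow A to E and at 888, 806, 760 and 1313 CPM in knockout chow A to D. Western medians were 1132 CPM in wildtype (869 to 1631) and 1186 CPM in knockout libraries (893 to 1446). Knockout chow D, a placed library, was the only chow library above both Western medians, and the fitted rise was 1.31-fold (log2 0.39, SE 0.095, adjusted p 0.0070). Cyp2d9 at 0.20 (SE 0.098, adjusted p 0.15), Cyp2d10 at 0.05 and Cyp2d22 at 0.03 did not pass.

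Cyp2a12, a hydroxylase of testosterone and bile acids, rose 1.22-fold (log2 0.28, SE 0.083, adjusted p 0.019). Its medians were 605 and 606 CPM in wildtype and knockout chow and 787 and 724 CPM in the Western groups. The ranges overlapped, from 481 to 743 CPM over chow and from 499 to 873 CPM over Western libraries. Apart from the 4 placed libraries, 14 of 14 wildtype and 9 of 14 knockout Western libraries lay above all chow libraries of their genotype. The call was lost without knockout chow A or B. Cyp2j6, of a subfamily that epoxidises arachidonic acid, rose 1.19-fold (log2 0.25, SE 0.083, adjusted p 0.041), with chow values of 47.2 to 89.5 CPM and Western values of 61.4 to 97.5 CPM. That call was not kept in 14 of 39 fits that left out 1 library. Cyp2a5, known for the oxidation of coumarin, was at -0.10 (SE 0.21), Cyp2f2 at 0.06 (SE 0.15), Cyp2j5 at 0.09 (SE 0.087) and Cyp2u1 at 0.01 (SE 0.12), and none passed.

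**Figure D3:**
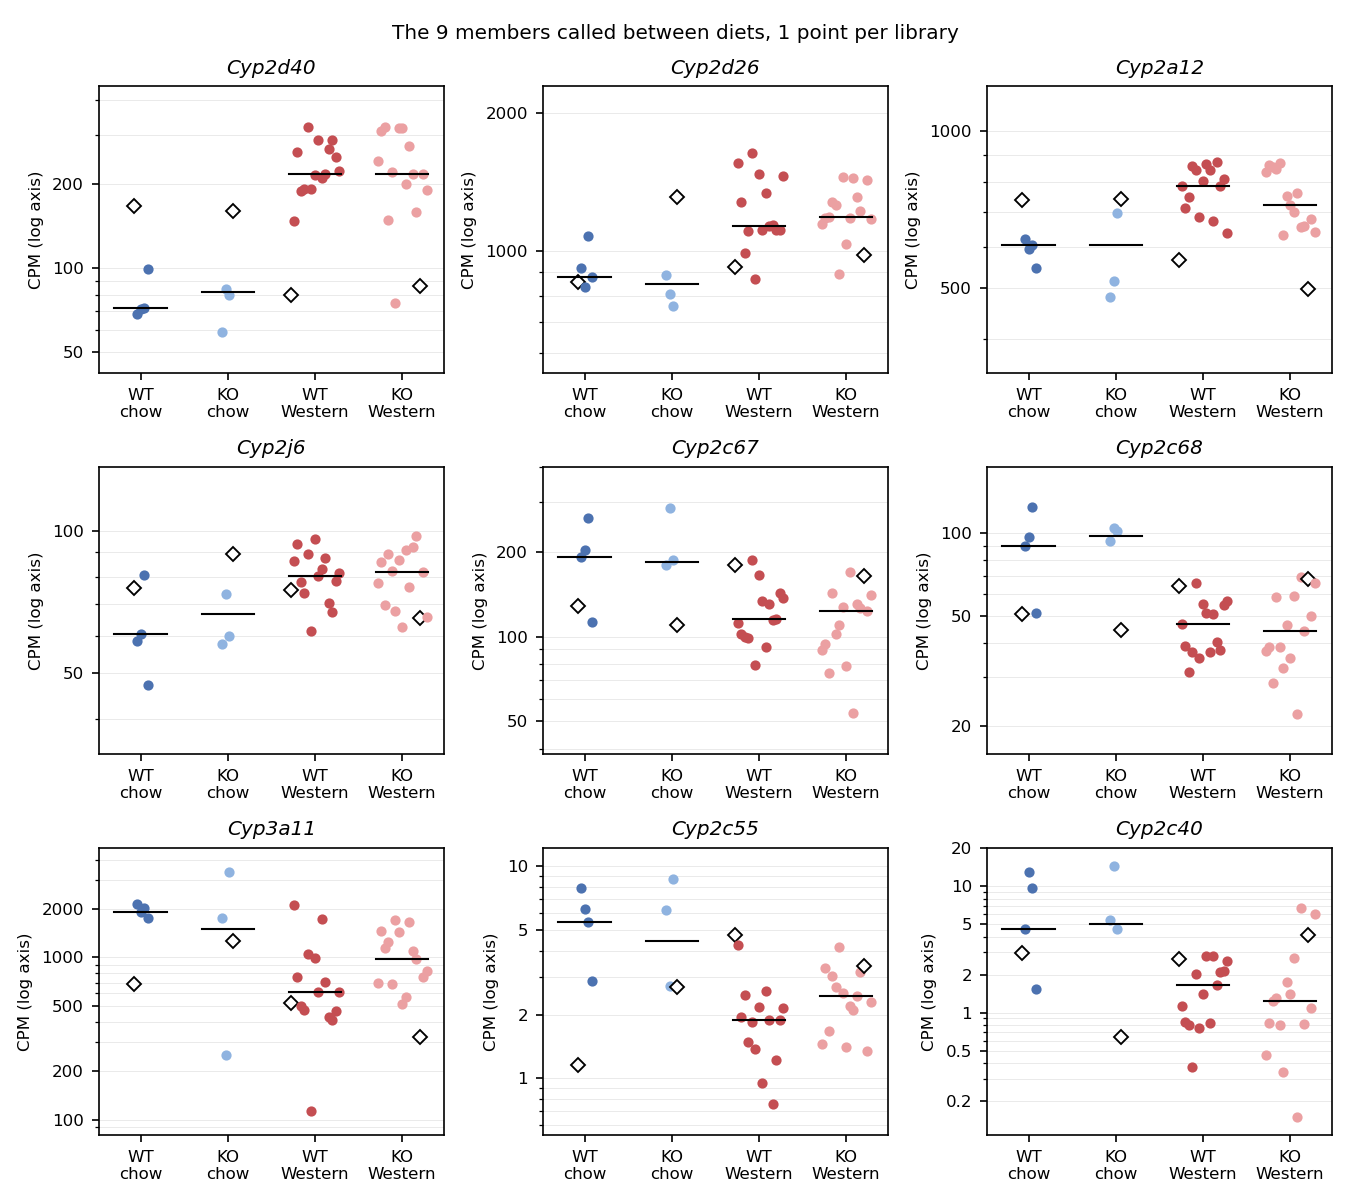
CPM (log axis) of the 9 members called between diets, 1 point per library, with a bar at each group median; open diamonds are the 4 libraries placed with the other diet. Cyp2d40 separates most cleanly apart from the diamonds and knockout Western F. The diet ranges of the other called members overlap in at least 1 genotype, also apart from the diamonds.

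Cyp2b9, a female-biased gene, was close to 0 in most of these male livers and high in a few libraries. Wildtype chow D was at 0.281 CPM and the other 4 wildtype chow libraries were at 0, while knockout chow A to D were at 0.252, 0.0679, 0 and 11.5 CPM. Wildtype Western libraries ran from 0 through a median of 0.145 to 2.43 CPM, and knockout Western libraries from 0 through 0.355 to 17.1 CPM. The 4 highest knockout Western libraries were J at 17.1, N at 16.3, K at 3.97 and L at 2.31 CPM, and the single high chow library, knockout chow D, is among those placed with the Western diet. The diet change was 1.76 (SE 1.25, adjusted p 0.34) with all libraries and 4.05 (SE 1.45, adjusted p 0.033) without the 4 placed ones, where no chow library passed 0.281 CPM. That fitted value rests on chow levels near 0 and is no bound on the change. Cyp2b13, which shares 5.16% of the windows of Cyp2b9, reached 1.20 CPM in knockout Western J, 0.486 CPM in knockout chow D and 0.473 CPM in knockout Western N, its 3 highest libraries. Cyp2b10 had at most 18 counts in any library, in knockout Western F.

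Other low members tested were the female-biased Cyp2a4 (summed counts 263), then Cyp2a22 (314) and the retinoic acid hydroxylase Cyp2c39 (849), with diet changes of -0.04 (SE 0.40), 0.24 (SE 0.25) and 0.59 (SE 0.40). None of these passed. Of the 20 genes listed as female-biased in the liver, 7 of them members, 10 could be tested: 1 rose (Rtn4, 0.65) and 2 fell (Cyp2c40 and Cyp2c69), with a median of -0.11 beside -0.0019 over all genes. Without the 4 placed libraries 2 rose and 2 fell, with a median of -0.26. Of 18 listed as male-biased, including Cyp2d9 and Cyp2u1, none rose and 1 fell (Nudt7, a coenzyme A hydrolase, by 0.43 on the log2 scale), with a median of -0.13, and without the placed libraries none rose and 4 fell. Beside the counts of both lists, 7.84% of all genes rose and 6.77% fell, and 29.9% passed without the placed libraries.

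The genes that supply electrons and sense ligands did not pass. Por was at 95.8 to 173 CPM in wildtype chow, 112 to 215 CPM in knockout chow, 130 to 295 CPM in wildtype Western and 119 to 275 CPM in knockout Western libraries, a diet change of 0.24 (SE 0.14, adjusted p 0.24). Nr1i2 had group medians of 73.0, 76.8, 77.5 and 77.9 CPM in the same order of groups and changed by 0.03 (SE 0.092, adjusted p 0.86). Nr1i3 had medians of 68.8, 86.5, 84.0 and 106.8 CPM within wide ranges, 38.6 to 179 CPM in wildtype Western alone, and a change of 0.19 (SE 0.22, adjusted p 0.58). Of the windows of Nr1i3, 49.97% also lie in transcripts of Tomm40l, so its counts may hold reads of both. Ahr had medians of 43.4, 35.0, 37.5 and 35.7 CPM and a change of -0.04 (SE 0.11, adjusted p 0.82). All 4 had ranges that overlapped between the diets.

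Relations within each Western group were computed on log2 CPM, 22 in all, with permutation tests of 100000 resamples and Benjamini-Hochberg adjustment. They comprised receptors against target genes and Por, the receptor pair Nr1i2 and Nr1i3, the pair Cyp2b9 and Cyp2b13, and the acute phase mean against 4 members. In wildtype mice the acute phase mean was related only within the 10 libraries where it is lower. In wildtype Western libraries (n = 15), Nr1i3 and Cyp2c29, a gene known to be induced by CAR, had Pearson's r = 0.746 (permutation p = 0.00104, adjusted 0.0114) and Spearman's rho = 0.607 (permutation p = 0.0186, adjusted 0.102). Leaving out libraries F and G, farthest from the median of Nr1i3, gave r = 0.592, and in the 10 libraries with lower acute phase genes r was 0.572 (permutation p = 0.0881). Nr1i3 and Cyp2c55 had r = 0.656 (permutation p = 0.00717, adjusted 0.0383) and rho = 0.629 (permutation p = 0.0141, adjusted 0.102), 0.763 without F and G and 0.848 in those 10 libraries. Nr1i2 and Nr1i3 had r = 0.654 (permutation p = 0.00662, adjusted 0.0383) and rho = 0.636 (permutation p = 0.0127, adjusted 0.102), with 0.572 without the 2 farthest libraries.

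In knockout Western libraries (n = 15) the same pairs had r = 0.327 (permutation p = 0.236), 0.168 (permutation p = 0.549) and 0.491 (permutation p = 0.0650), with rho = 0.325, 0.161 and 0.439. The difference between genotypes was not tested. Nr1i2 and Cyp3a11 had r = 0.250 in wildtype (permutation p = 0.355) and -0.0294 in knockout libraries (permutation p = 0.917). Cyp2b9 and Cyp2b13 had r = 0.812 in knockout libraries (permutation p = 0.00063, adjusted 0.0114) and 0.605 in wildtype libraries (permutation p = 0.00871, adjusted 0.0383), which rest on few libraries and few counts: without the 2 farthest, r was 0.514 and 0.435. Nr1i3 and Cyp2b10, whose counts are sparse, had r = 0.121 in wildtype (permutation p = 0.665) and -0.396 in knockout libraries (permutation p = 0.144), and Nr1i3 and Por had 0.404 (permutation p = 0.134) and 0.233 (permutation p = 0.400). The acute phase mean had r between -0.306 and 0.0745 with Cyp3a11, Cyp2c29, Nr1i3 and Cyp2d9 in those 10 wildtype libraries. In knockout libraries it had r = 0.0113 with Cyp3a11, 0.0833 with Cyp2c29, -0.428 with Nr1i3 and -0.268 with Cyp2d9, and none of these 8 relations passed. The wildtype relations leave out libraries F, G, L, M and N, so they do not cover the high acute phase range. Medians in these libraries were below those of the other 10 for each of these genes, with overlapping ranges. They were 427.5 against 660 CPM for Cyp3a11 and 651 against 884 CPM for Cyp2c29. For Nr1i3 they were 64.6 against 91.9 CPM, and for Cyp2d9 1859 against 2212 CPM. Medians of some other members were higher in the high acute phase libraries, such as Cyp3a13 (153 against 94.6 CPM) and Por (213 against 146 CPM). The genes named before these therefore do not stand for the whole set. Libraries L and M, whose counts differed least, may not count as separate cases. None of these differences was tested. By rho, 0 of the 22 relations passed after adjustment, and by r, 5 did.

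**Figure D4:**
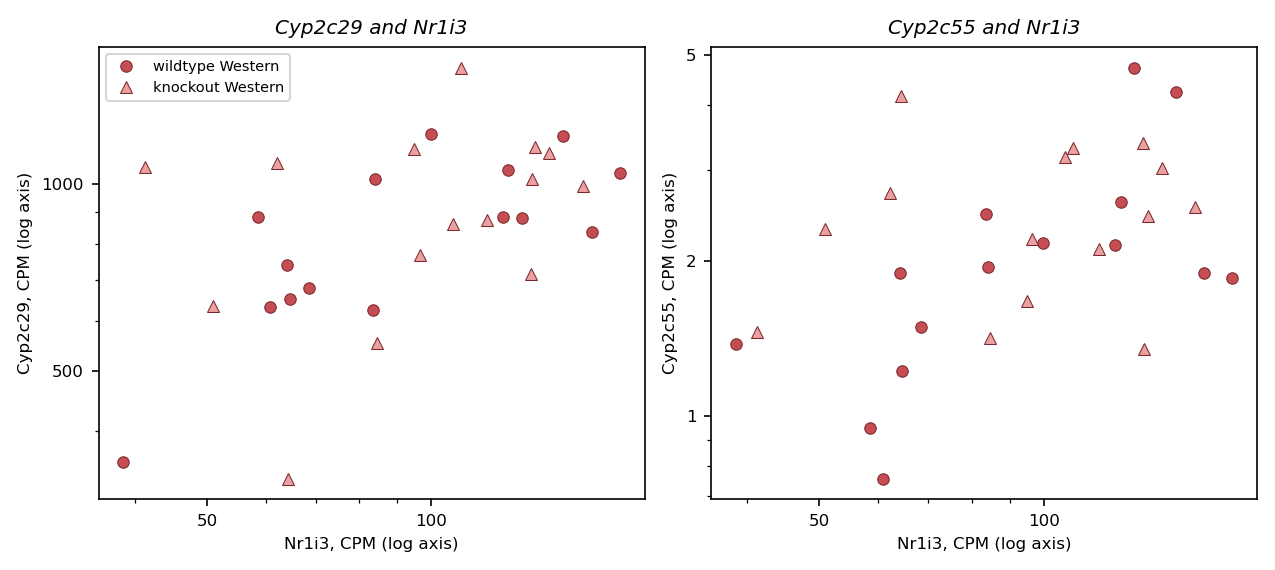
Cyp2c29 (left) and Cyp2c55 (right) against Nr1i3 in the Western libraries, in CPM on log axes, 1 point per library, circles for wildtype and triangles for knockout. In wildtype, library G has the lowest Nr1i3 (38.6 CPM) and the lowest Cyp2c29 of its group (357 CPM), and in knockout, library F has the lowest Cyp2c29 (335 CPM).

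Most genes of the other drug-metabolising lists did not pass between diets, and those that did lay in both directions, beside 14.6% of all genes. Medians of the log2 fold change were -0.03 for other Cyp1, Cyp2 and Cyp3 genes, -0.02 for other phase I enzymes, -0.14 for conjugation enzymes and 0.21 for drug transporters. Of 13 other Cyp1, Cyp2 and Cyp3 genes tested, 1 rose (Cyp2d12, 0.71) and 3 fell, among them Cyp1a2, the main target of the Ah receptor in liver (-0.59, SE 0.16, adjusted p 0.015), and Cyp2j9 (-0.755), and without the 4 placed libraries the counts were likewise 1 and 3. Of 26 other phase I enzymes, 4 rose and 3 fell (4 and 5 without the placed libraries), with Fmo5, a flavin monooxygenase, at 0.85 (SE 0.14) and the carboxylesterases Ces2e at 0.73, Ces2a at -0.65 and Ces1c at -0.51. Of 34 conjugation enzymes, 3 rose and 5 fell (6 and 7 without them, where 29.9% of all genes passed), with the glutathione transferase Gsta4 at -1.06 (SE 0.22), the thiopurine methyltransferase Tpmt at 0.41, the epoxide hydrolase Ephx2 at 0.37 and Gsta2 at -1.11. Of 12 drug transporters, 3 rose, 5 without the placed libraries (among them Slco2b1 by 0.37 and Abcg2 by 0.76) and Slco1a4, an organic anion transporter, fell by 1.49 on the log2 scale.

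Of 16 genes of electron transfer and haem synthesis, 1 rose (Cpox, 0.38) and none fell, with a median of -0.04, and without the 4 placed libraries 2 rose and 2 fell. Of 21 receptor partners and liver regulators, none rose and 1 fell (Dnajc7, a co-chaperone, by 0.17 on the log2 scale), with Hnf4a at -0.03 (SE 0.11) and a median of 0.04, and without the placed libraries 2 rose and 1 fell. Of 16 pericentral genes, the zone where most P450s are known to be expressed, 5 rose and 1 fell, with Slc1a4 at 0.96, Gulo at 0.33 and Glul at 0.35 and a median of 0.12 (5 and 2 without the placed libraries). Of 15 periportal genes, none rose and 4 fell: Arg1 by 0.34, Etnppl by 0.77, Hal by 0.50 and Gls2 by 0.50 on the log2 scale, with a median of -0.18 (0 and 5 without the placed libraries). Of 21 acute phase genes, 1 fell (Hamp, the iron hormone hepcidin, by 1.66) and the median was 0.38 (2 rose and 1 fell without the placed libraries). Beside these counts, 7.84% of all genes tested rose and 6.77% fell. Without the placed libraries 29.9% of all genes passed in either direction. Whether any of these lists departed from such shares was not tested. The part of any of these lists in the changes of the members was not tested.

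Within genotypes fewer members passed. In wildtype mice Cyp2d40 rose by 1.22 (SE 0.29, adjusted p 0.035) and Cyp2c68 fell by 0.82 on the log2 scale (SE 0.21, adjusted p 0.047), 2 of 33 beside 1.39% of all genes (0.771% higher and 0.615% lower), while Cyp2c55 at -1.15 (SE 0.32, adjusted p 0.054) did not pass. Both calls were lost when any of wildtype chow B, C, D or E was left out. Without the 4 placed libraries 8 passed, 4 higher and 4 lower, beside 8.66% of all genes (4.26% higher and 4.4% lower). In knockout mice 0 of 33 passed edgeR's test, beside 0.00654% of all genes, with 8 at an unadjusted p under 0.05 beside 19.2% of all genes. The smallest p-values were those of Cyp2c68 (-0.89, SE 0.23, adjusted p 0.097), Cyp2d40 (1.20, SE 0.32, adjusted p 0.10) and Cyp2c67 (-0.73, SE 0.22, adjusted p 0.12). In knockout mice DESeq2 called 2 (1.504% of all genes) and limma voom 5 (5.36% of all genes), and edgeR without the 4 placed libraries called 7, 3 higher and 4 lower, beside 17.2% of all genes (9.69% higher and 7.5% lower). Leaving out knockout chow D alone gave 6, beside 9.06% of all genes. The diet by genotype interaction was called for 0 of 33 members, beside 0.0% of all genes, and for 0 by DESeq2 or limma voom. An unadjusted p under 0.05 in edgeR was reached by 0 of 33 members, beside 285 of all 15296 genes. The smallest p-values were those of Cyp2b9 (-3.70, SE 2.43), Cyp3a25 (0.45, SE 0.30) and Cyp3a59 (0.76, SE 0.51), with an adjusted p of 1.00 each, and Cyp2b9 was at 1.21 (SE 3.98) without the placed libraries.

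Loss of Cd163 gave no called difference in any of these genes. On Western diet 0 of 33 members passed edgeR's test of knockout against wildtype, beside 0.00654% of all genes, and 0 passed by DESeq2 or limma voom. An unadjusted p under 0.05 in edgeR was reached by 1 of 33 members, beside 777 of all 15296 genes. Fitted differences ran from -0.18 to 1.92 on the log2 scale with standard errors of 0.068 to 0.84. The largest was Cyp2b9 (1.92, SE 0.84, adjusted p 0.94), which rests on the few high knockout libraries named above, followed in order of p by Cyp3a25 (0.26, SE 0.14, adjusted p 0.94) and Cyp3a59 (0.37, SE 0.24, adjusted p 0.95). For the 3 members highest per length the differences were small and their errors narrow: -0.07 (SE 0.093) for Cyp2d9, -0.0055 (SE 0.089) for Cyp2d26 and -0.10 (SE 0.068) for Cyp2d10. Errors were wider for other abundant members: -0.17 (SE 0.14) for Cyp2f2, 0.13 (SE 0.17) for Cyp2c29 and 0.39 (SE 0.31) for Cyp3a11.

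On chow, with 4 knockout and 5 wildtype libraries, 0 of 33 passed, beside 0.00654% of all genes, with 1 at an unadjusted p under 0.05 and 0 by DESeq2 or limma voom. The smallest p-values were those of Cyp2b9 (5.62, SE 2.13), Cyp3a13 (-0.50, SE 0.26) and Ahr (-0.31, SE 0.19), with an adjusted p of 1.00 each. Without the placed libraries, 0 members passed on either diet, beside 0.00647% of all genes. The value of Cyp2b9 was 0.72 (SE 3.28) without the placed libraries, among which is knockout chow D. Cyp3a13, an intestinal and hepatic Cyp3a enzyme, was at 61.8 to 84.1 CPM in knockout and 80.3 to 149 CPM in wildtype chow libraries, so that the ranges overlapped. A p over the threshold does not show that genotypes are alike.

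**Figure D5:**
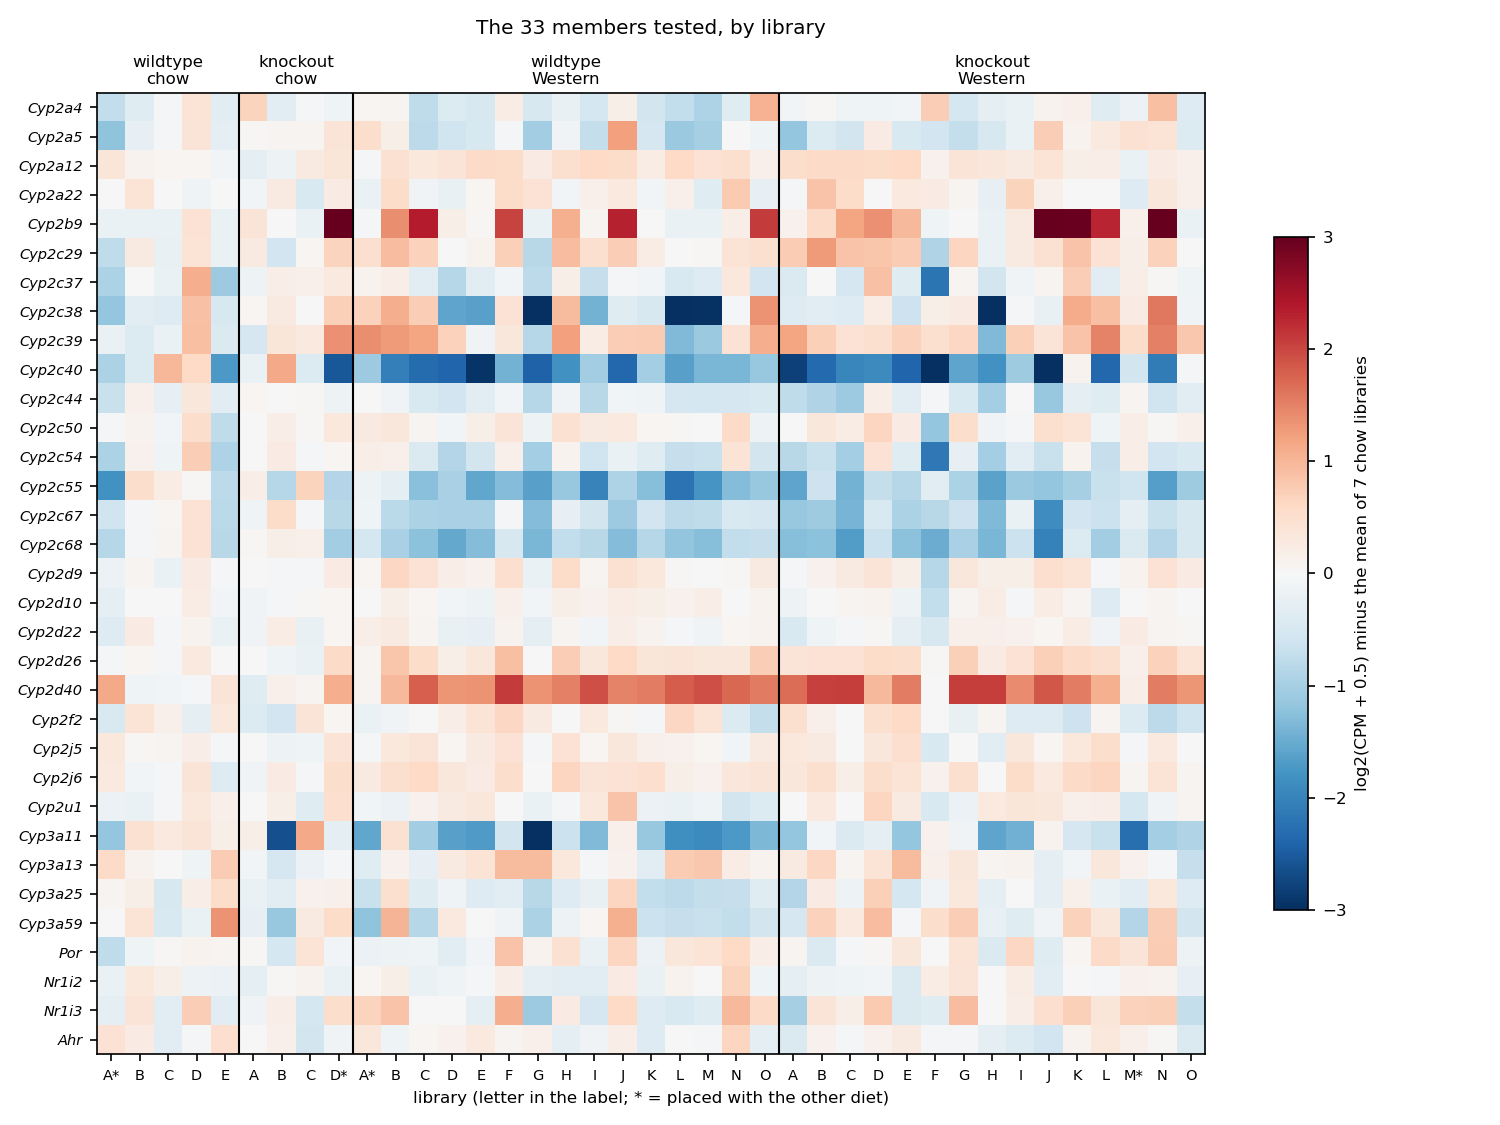
The 33 members tested (rows) in the 39 libraries (columns, by group and label letter, asterisk for the 4 placed libraries), as log2 of CPM plus 0.5 minus the mean of the 7 other chow libraries. Values beyond -3 or 3 take the end colours. The Western columns are darker blue for Cyp2c40, Cyp2c55 and Cyp2c68 and red for Cyp2d40, and single columns stand out, such as knockout Western F.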

How the data were processed

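Whole-liver RNA was sequenced in paired ends. The authors deposited 1 table of raw counts per gene; per the submitters' processing notes, STAR 2.7.8a, featureCounts 2.0 and the GRCm39 build were used. Annotation release and strand setting are not given in the sources used here. Symbols were found for 52083 of 55416 identifiers (99.4% of counts). Counts were tested on the whole table with edgeR 4.0.16 (TMM, filterByExpr by group with minimum count 10 and minimum total 15, robust quasi-likelihood fit, 1 term per group, 39 libraries), with Benjamini-Hochberg adjustment over all genes tested and a threshold of 0.05; the code was tested on simulated data. Alternatives were DESeq2 1.42.0, limma 3.58.1 voom, other filters and scaling, a replicate-letter block and left-out libraries. Replicate letters did not pair libraries. Lengths and shared 75-base windows came from GENCODE transcripts of GRCm38, not the authors' annotation, and promoters from RefSeq (GRCm38.p6). Members and gene lists were chosen with earlier results of these data known. Named in full were members called in any comparison, the 3 smallest p-values per comparison, the reductase, receptors and pairs tested for a relation; of other lists, the called genes, at most the 4 with the smallest p. One gene of these lists is not reported here.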

Additional observations from a re-analysis of the deposited data

Results flagged for a closer look

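In the 2 chow groups, 66 combinations of member and group were examined for a single library far from the others, and 8 were found, where chance alone marks about 1 in 20 groups. Knockout chow D, one of the libraries placed with the Western diet, was the highest of its group for Cyp2a5 (396 CPM against 310 to 321 CPM), for Cyp2b9 (11.5 CPM against 0 to 0.252 CPM) and for Cyp2d9 (2152 CPM against 1749 to 1810 CPM). Wildtype chow A, also placed with the Western diet, was the lowest of its group for Cyp3a11 (687 CPM against 1753 to 2133 CPM). Wildtype chow D was the highest of its group for Cyp2c38 (59.7 CPM against 14.3 to 25.6 CPM), for Cyp2c39 (1.83 CPM against 0.426 to 0.579 CPM) and for Cyp2b9 (0.281 CPM, which is 4 counts, against 0). Wildtype chow B was the highest of its group for Cyp2a22 (0.739 CPM against 0.352 to 0.435 CPM). The cause of these was not tested.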

How the results depend on the processing

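The count of 9 members called between diets averaged over genotypes became 11 with limma voom or without the 4 placed libraries and 7 without a low-count filter or with a replicate block on the letter, and ran from 6 (without knockout chow A or B) to 11 (without knockout chow D) when 1 library was left out. With the replicate block Cyp2c55 and Cyp3a11 were lost. Cyp2c40, Cyp2c55, Cyp2c68, Cyp2d26 and Cyp2d40 passed in 39 of 39 fits without 1 library, Cyp2c67 in 38, Cyp2a12 in 37, Cyp3a11 in 34 and Cyp2j6 in 25 (lost without knockout chow A, B or C, wildtype chow B, C or E, knockout Western B, D, K or L, or wildtype Western C, F, H or K). The 2 members called in wildtype mice became 5 with DESeq2, 8 with limma voom, 0 without a filter, 0 with the replicate block, 1 with libraries L and M summed and 8 without the placed libraries, with 0 (without wildtype chow B, C, D or E) to 5 (without wildtype Western A) when 1 library was left out. In knockout mice the count of 0 became 2 with DESeq2, 5 with limma voom and 7 without the placed libraries, with 0 to 6 when 1 was left out. Genotype and interaction counts were 0 in every alternative run, and no called value changed sign in any. Cyp2c68 in wildtype passed in 17 of 39 fits without 1 library and Cyp2d40 in 34 (lost without wildtype chow B, C, D or E or wildtype Western F). The share of all genes called moved as well. Without the placed libraries it went from 14.6% to 29.9% averaged over genotypes, from 1.39% to 8.66% in wildtype and from 0.00654% to 17.2% in knockout mice. A count of members without such a share beside it, here or above, is no result about these members alone. The cause of these shifts was not tested. Letters gave no pairing: same-letter Western libraries correlated at -0.0104 on average (-0.325 to 0.376), and 2 of 15 wildtype libraries correlated best with their own letter. Depth limits the 5 members not tested and Cyp2b9, Cyp2a4, Cyp2a22 and Cyp2c39. The relations within 10 wildtype libraries were chosen after seeing the data.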

Other observations

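Single libraries stood apart over many members at once, seen after the values were examined. How often these libraries were extreme over all genes is not given here, so the counts are no result about the members alone. On chow, ties included, wildtype D and knockout D were each the highest of their small groups for 19 of 33 members. Wildtype chow A was the lowest of its group for 15 of 33. Knockout Western F, the deepest library, was the lowest of its group for 10 of 33 members tested, with Cyp2c37 at 37.7 CPM against 118 to 318 CPM in the others, Cyp2c54 at 42.8 against 92.8 to 257 CPM, Cyp2c50 at 240 against 488 to 836 CPM and Cyp2d9 at 994 against 1762 to 2549 CPM. The same library was the highest for Cyp3a11, at 1696 CPM against 324 to 1659 CPM, and for Cyp2c55, at 4.17 CPM against 1.35 to 3.38 CPM. Wildtype Western G, with the highest acute phase mean (10.4 log2 CPM), was the lowest of its group for 13 of 33, with Cyp3a11 at 113 CPM against 412.5 to 2117 CPM, Cyp2c29 at 357 against 626 to 1202 CPM and Nr1i3 at 38.6 against 58.5 to 179 CPM (the highest being the acute phase library F, followed by N at 164 CPM), while Cyp3a13 was its highest at 169.8 CPM.

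Cyp2c38 and its neighbour Cyp2c39 were low together in single Western libraries. Cyp2c38 ran from 1.88 to 83.9 CPM in wildtype and from 3.49 to 98.2 CPM in knockout Western libraries, with the low values in wildtype G (1.88), L (3.63) and M (3.74) and knockout H (3.49 CPM). Cyp2c39 was lowest in the same 4 libraries, at 0.188, 0, 0.0719 and 0 CPM, although the pair shares only 1.86% of the windows of Cyp2c38. Wildtype L and M are the pair of libraries whose counts differed least, so they may not count as separate cases. Wildtype G, L and M are among the libraries with high acute phase genes, whereas knockout H was at 8.17, knockout E at 9.22 held 21.1 CPM of Cyp2c38, and wildtype F and N, also high, held 44.0 and 31.4 CPM of Cyp2c38. The part of the acute phase genes in these values was not tested.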
